A study of Homo sapiens with 26 samples.

Results

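The comparison described here is that of cyclophosphamide resistant with cyclophosphamide sensitive cell lines within diffuse large B-cell lymphoma (DLBCL). Its members were chosen by the response classes in the sample labels, and they are 8 of the 26 lines in the series. DB, FARAGE, RIVA and U2932 form the resistant class and NU-DHL-1, NU-DUL-1, OCI-Ly19 and SU-DHL-5 the sensitive class. HBL-1, OCI-Ly3, OCI-Ly7 and SU-DHL-8 were classed as intermediate and serve only as a description, as do 4 resistant and 4 sensitive lines of the multiple myeloma (MM) panel, of which the resistant line AMO-1 is labelled a plasmacytoma. All of these are established human cell lines, hybridised without drug treatment to Affymetrix HG-U133 Plus 2.0 arrays, with 1 array per line. The line is thus the replicate, and every p value measures the spread between lines that also differ in their origin. Serum in the medium was 20% for DB and 10% for the other resistant lines, against 20% for SU-DHL-5, 15% for NU-DUL-1 and 10% for the other sensitive lines. FARAGE, RIVA and U2932 came from the laboratory of Navarra and DB from the DSMZ, whereas OCI-Ly19 came from the laboratory of Navarra and the other sensitive lines from the DSMZ. All intermediate lines came from the laboratory of Navarra, with 20% serum for OCI-Ly3 and 10% for the others. The MM lines had 10% or 20% serum, and all but KMM-1 and MM1S came from the DSMZ.

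Cyclophosphamide is an alkylating prodrug that is activated by liver enzymes, and mafosfamide, which releases the active intermediate without the liver, stands in for it in culture. The intermediate aldophosphamide breaks down to phosphoramide mustard, which crosslinks DNA, unless aldehyde dehydrogenases oxidise it to an inactive acid. Crosslinks stall replication forks and are repaired by the Fanconi anaemia and homologous recombination proteins, and cells that do not repair them die through the mitochondrial BCL2 family pathway. DLBCL arises from mature B cells and is commonly treated with cyclophosphamide together with doxorubicin, vincristine, prednisolone and an antibody against CD20.

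The response was given in the labels as AUC0, an area taken below the dose response curve where growth stayed positive, for which a high value means growth at higher concentrations. For cyclophosphamide it was 346 in DB, 330 in U2932, 311 in FARAGE and 296 in RIVA, against 214 in NU-DUL-1, 202 in OCI-Ly19, 172 in NU-DHL-1 and 165 in SU-DHL-5. The mean was 320.75 ± 21.84 in the resistant and 188.25 ± 23.5 in the sensitive lines (SD, n = 4 each). The classes followed from these values, so their separation is a description. The intermediate lines ran from 226 in HBL-1 to 271 in SU-DHL-8, so RIVA and NU-DUL-1 lay nearest to them on either side. The limits given for RIVA, 278 to 317, overlap those of SU-DHL-8, 219 to 284, and the limits of NU-DUL-1, 191 to 225, overlap those of HBL-1, 208 to 243. The response to doxorubicin moved with that to cyclophosphamide in part. DB, RIVA and U2932 had a doxorubicin AUC0 of 276, 327 and 295, FARAGE had 180, and the sensitive lines ranged from 167 to 224. For vincristine it was 131, 56, 109 and 85 in DB, FARAGE, RIVA and U2932. It was 54 to 90 in 3 sensitive lines, and NU-DHL-1 had no value. DB and RIVA were classed as resistant, and OCI-Ly19 and SU-DHL-5 as sensitive, to each of the drugs.

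**Figure D1:**
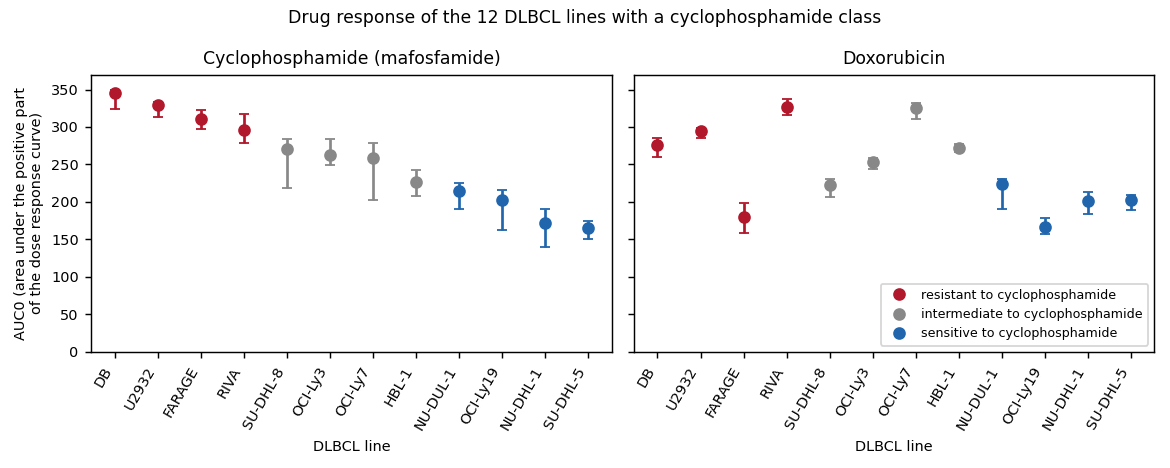
AUC0 (no unit) of cyclophosphamide, tested as mafosfamide, and of doxorubicin in the 12 DLBCL lines with a cyclophosphamide class. Points are the values and bars the limits given in the labels, and lines are ordered within each class by cyclophosphamide AUC0. The resistant lines lie at 296 or above and the sensitive lines at 214 or below for cyclophosphamide, while FARAGE has a doxorubicin value of 180, within the range of the sensitive lines.

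The deposited values were RMA values on the log2 scale, and a probe-set is a group of short probes for 1 transcript that RMA reduces to 1 value. The array medians of the 8 lines lay between 5.65 and 5.71, and the correlation between lines across probe-sets was 0.916 to 0.945 within the resistant class, 0.928 to 0.949 within the sensitive class and 0.908 to 0.949 between the classes. The B-cell label was borne out, with PAX5, the factor that maintains B-cell identity, at 10.73 to 11.56 in the resistant and 10.84 to 11.21 in the sensitive lines. The CD3D, CD3E and CD3G genes of the T-cell receptor complex were at 4.68 to 5.65 in the resistant and 4.78 to 5.61 in the sensitive lines. On the log2 scale the mean over the T-cell marker list was 5.52 to 6.26 in the resistant and 5.00 to 5.86 in the sensitive lines, and over the myeloid list 4.35 to 4.48 and 4.37 to 4.81. No scan date or batch was given in the sources used here. A lower signal from a few cells and a lower signal in every cell cannot be told apart in such bulk RNA.

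In the comparison of the resistant with the sensitive lines, 0 of 54613 probe-sets (0.0%) passed an adjusted p of 0.05 with limma, and the smallest adjusted p was 0.181. At an unadjusted p of 0.05 limma gave 2342 probe-sets (4.29%), of which 1210 were higher (2.22%) and 1132 lower (2.07%) in the resistant lines. In 1420 probe-sets (2.6%) the classes did not overlap, with all 4 resistant lines above all 4 sensitive lines in 728 (1.33%) and below them in 692 (1.27%). With 4 lines a class the exact permutation test of a single probe-set cannot give a two-sided p below 0.0286. A probe-set without overlap has this p, which is also the share that would lie apart if classes were assigned at random. The 2.6% was not above that share, and the 4.29% was not above 0.05. All differences below are thus log2 differences of the resistant minus the sensitive lines that did not pass the adjusted threshold, and they are given with the values of the lines. With 1 probe-set for each of 19775 genes, 4.46% had an unadjusted p under 0.05 with limma, 2.29% higher and 2.16% lower, and the classes did not overlap in 2.5%, 1.37% higher and 1.13% lower. These shares stand as the background of the counts over gene lists.

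Among the aldehyde dehydrogenases, ALDH2, the mitochondrial enzyme best known for the oxidation of acetaldehyde, was higher in every resistant line. Its log2 expression was 9.63 in DB, 10.13 in FARAGE, 8.81 in RIVA and 10.68 in U2932, against 6.13 in NU-DHL-1, 7.15 in NU-DUL-1, 6.45 in OCI-Ly19 and 6.39 in SU-DHL-5. The lowest resistant line was thus well above the highest sensitive line. The difference was 3.28 (standard error 0.41), a 9.72-fold higher level, with an adjusted p of 0.271 from limma. It was between 2.99 and 3.61 when a line was left out. In contrast, ALDH1A1 and ALDH3A1, the enzymes known to inactivate aldophosphamide, showed no such separation. ALDH1A1 was at 3.35 to 3.65 in the resistant and 3.33 to 3.89 in the sensitive lines, near the bottom of the scale, and ALDH3A1 at 5.10 to 5.95 and 5.49 to 5.66. Their differences were −0.08 (standard error 0.14) and −0.01 (standard error 0.18), and the sign of both turned when single lines were left out. ALDH5A1, which degrades succinic semialdehyde, was at 9.38 to 12.68 in the resistant lines and 4.85 to 10.84 in the sensitive lines, and the classes overlapped. Of the 13 aldehyde dehydrogenases measured 6 were above and 7 below 0, with a median of −0.01 against 0.01 for all genes.

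Glutathione and thiol genes went both ways. SLC7A11, the cystine importer that feeds glutathione synthesis, was at 9.56, 7.59, 8.39 and 7.26 in DB, FARAGE, RIVA and U2932, against 5.25, 5.09, 6.64 and 6.05 in NU-DHL-1, NU-DUL-1, OCI-Ly19 and SU-DHL-5. The classes did not overlap and the difference was 2.44 (standard error 0.56, adjusted p = 0.899, limma). GSTP1, the glutathione transferase most abundant in many tumours, was at 11.57 to 12.44 in the resistant and 9.11 to 11.70 in the sensitive lines, where NU-DHL-1 had the lowest value and SU-DHL-5 overlapped the resistant lines. GSTO1, an omega class transferase, was lower in all resistant lines, at 9.17 to 10.60 against 10.78 to 11.54, with a difference of −1.14. Over the 23 genes of glutathione synthesis and transfer the median was 0.13, with 2 higher and 2 lower at an unadjusted p of 0.05. Of 9 drug efflux transporters only ABCC1, which exports glutathione conjugates, had an unadjusted p under 0.05, at 7.82 to 8.64 in the resistant and 7.37 to 7.87 in the sensitive lines.

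**Figure D2:**
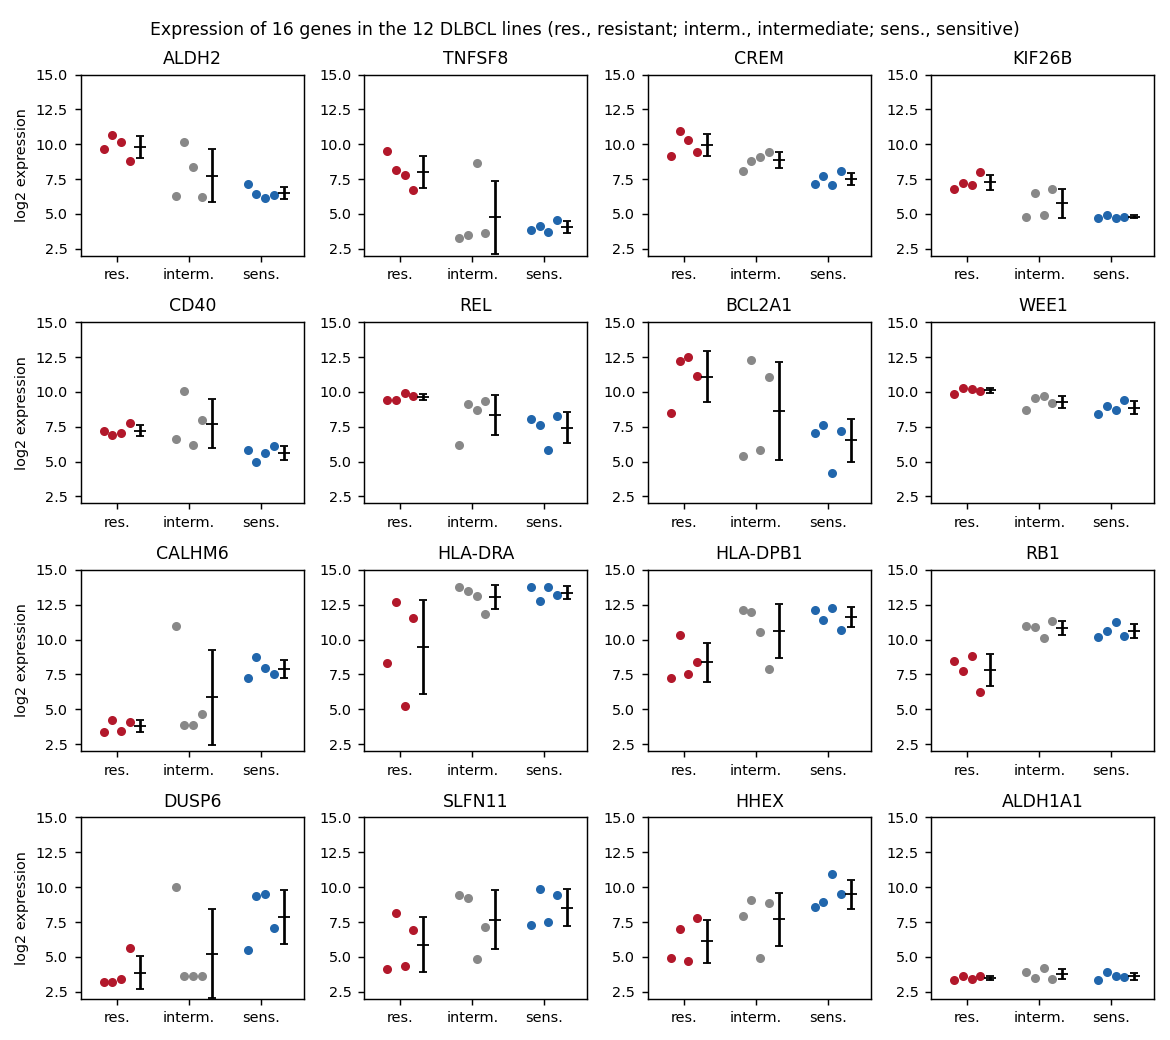
Log2 expression of 16 genes in the 12 DLBCL lines by cyclophosphamide class. Points are lines, ordered within each class by AUC0, and the dash with its bar is the mean ± SD (n = 4). ALDH2, TNFSF8, CREM, KIF26B, CD40, REL, BCL2A1 and WEE1 do not overlap between the resistant and the sensitive lines and are higher in the resistant ones, CALHM6, HLA-DRA, HLA-DPB1, RB1 and HHEX are lower without overlap, and DUSP6, SLFN11 and ALDH1A1 overlap.

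The genes of antigen presentation by MHC class II were lower in the resistant lines as a list. The class II heterodimers HLA-DR, HLA-DQ and HLA-DP present peptides to CD4+ T cells, the transactivator CIITA switches their genes on together, and HLA-DM and HLA-DO edit the peptide that is bound. HLA-DRA, the invariant α chain of HLA-DR, was at 8.34 in DB, 5.25 in FARAGE, 11.56 in RIVA and 12.68 in U2932, against 13.74 in NU-DHL-1, 13.74 in NU-DUL-1, 12.80 in OCI-Ly19 and 13.18 in SU-DHL-5. The resistant lines spread over more than the sensitive ones, and U2932 came close to them. The difference was −3.91 (standard error 1.49), with an adjusted p of 0.997 from limma, and it became −7.03 with the doxorubicin AUC0 as a covariate and −2.50 without FARAGE. FARAGE was the only resistant line with a doxorubicin AUC0 within the range of the sensitive lines. This value and the others given with that covariate therefore lean on FARAGE. HLA-DPB1, the β chain of HLA-DP, was at 7.21, 7.54, 8.40 and 10.35 in DB, FARAGE, RIVA and U2932, against 12.27, 12.11, 11.41 and 10.71 in NU-DHL-1, NU-DUL-1, OCI-Ly19 and SU-DHL-5. The classes did not overlap and the difference was −3.25 (standard error 0.70, adjusted p = 0.838, limma). A second probe-set of HLA-DPB1 overlapped, at −0.59.

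U2932 was the highest resistant line in the partner chains too. HLA-DRB1 was at 7.63, 7.18, 8.32 and 11.52 in DB, FARAGE, RIVA and U2932, against 11.36 to 13.12 in the sensitive lines. HLA-DPA1 was at 3.97, 5.95, 4.59 and 8.66 in the same resistant lines, against 8.11 to 10.63 in the sensitive lines. Only U2932 overlapped the sensitive lines in both genes. The HLA-DQB1 probe-set with the largest difference was at 4.85, 4.43, 8.05 and 8.61 in DB, FARAGE, RIVA and U2932, against 9.43 to 10.59 in the sensitive lines. The probe-sets of HLA-DQB1 did not give 1 picture, since the one of the largest SD was at 9.86 in OCI-Ly19 and 9.48 in SU-DHL-5 but at 4.19 in NU-DHL-1 and 4.60 in NU-DUL-1. HLA-DQA1 had this second pattern too, at 3.83 to 4.36 in the resistant lines, 4.36 and 4.12 in NU-DHL-1 and NU-DUL-1, and 9.69 and 11.67 in OCI-Ly19 and SU-DHL-5. These genes are highly polymorphic, and the part of allele-specific hybridisation in their values was not tested.

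The regulators and the peptide editors differed less. CIITA was at 4.39 in DB, 7.45 in FARAGE, 6.09 in RIVA and 6.74 in U2932, against 7.41, 9.17, 6.85 and 6.05 in NU-DHL-1, NU-DUL-1, OCI-Ly19 and SU-DHL-5, so that only DB was below all sensitive lines. HLA-DOA had a difference of −1.86 (standard error 0.65) with overlap, while HLA-DMA and HLA-DMB had differences of −0.27 and 0.11 with standard errors of 0.58 and 0.69. HLA-DOB, in contrast, was at 7.85 to 11.12 in the resistant and 6.78 to 10.03 in the sensitive lines. In all, 11 of 13 class II genes had a negative difference, where 48.4% of all genes did, 5 had an unadjusted p under 0.05 and 2 did not overlap. The median difference was −1.86, against 0.01 for all genes. The mean log2 expression over the 13 genes was 7.21, 7.11, 7.75 and 8.49 in DB, FARAGE, RIVA and U2932, 8.34 to 9.20 in the intermediate lines, and 9.48, 9.26, 9.03 and 9.81 in NU-DHL-1, NU-DUL-1, OCI-Ly19 and SU-DHL-5. With the supplier as a block the median difference was −1.62, and with the probe-set of the highest mean for each gene it was −1.20.

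The promoters of the class II genes are shown because the genes are known to share a regulatory module, whose Y box is bound by the factor NF-Y. In the RefSeq promoter table of build GRCh38.p14, which holds 10 of the 13 genes, the letters GATTGG were searched on both strands from 250 bases before to 50 bases after the gene start. They were found in 7 of the 10, namely HLA-DRB1, HLA-DPB1, HLA-DQB1, HLA-DMA, HLA-DMB, HLA-DOA and HLA-DOB, and in 15.7% of 27305 promoters. The match was thus present both in HLA-DRB1 and HLA-DPB1, with differences of −3.38 and −3.25, and in HLA-DMA and HLA-DMB, with −0.27 and 0.11. It lay on the opposite strand in HLA-DPB1 and HLA-DMB. Whether a match of the letters is the Y box of the module was not tested. Stretches from 110 to 31 bases before the start are given 5′ to 3′ on the strand of the gene, with the letters in capitals where they match on either strand. They are those of HLA-DRB1 at chr6:32589879-32589958 (minus strand), HLA-DQB1 at chr6:32666688-32666767 (minus strand), HLA-DPB1 at chr6:33075880-33075959 (plus strand) and HLA-DOA at chr6:33009622-33009701 (minus strand).
HLA-DRB1: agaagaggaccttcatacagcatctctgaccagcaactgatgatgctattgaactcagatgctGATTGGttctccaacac
HLA-DQB1: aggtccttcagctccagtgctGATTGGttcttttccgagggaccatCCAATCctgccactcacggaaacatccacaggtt
HLA-DPB1: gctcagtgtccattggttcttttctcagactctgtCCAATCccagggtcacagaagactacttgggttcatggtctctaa
HLA-DOA: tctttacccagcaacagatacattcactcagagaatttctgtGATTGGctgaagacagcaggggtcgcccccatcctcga

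Genes of MHC class I presentation were lower by less, and DB weighed on them. HLA-E, a ligand of NK cell receptors, was at 6.44 in DB, 11.01 in FARAGE, 10.12 in RIVA and 9.89 in U2932, against 10.85 to 11.99 in the sensitive lines. HLA-B was at 8.74 in DB and 11.46 to 12.36 in the other resistant lines, against 11.05 to 13.76, and HLA-C at 8.12 in DB and 11.29 to 12.18, against 11.16 to 12.92. DB was thus below every sensitive line in these genes, while FARAGE in HLA-E and all 3 other resistant lines in HLA-B and HLA-C were above SU-DHL-5. The difference in HLA-E was −2.20, and −1.23 without DB. NLRC5, the transactivator of class I genes, ranged from 6.14 to 8.89 in the resistant and from 6.09 to 10.07 in the sensitive lines. PSMB10, a subunit of the immunoproteasome, did not overlap, at 9.21 to 10.11 against 10.15 to 10.36. For ERAP1, which trims peptides for class I, the probe-sets disagreed, since the one of the largest SD was lower without overlap at −1.98 and another was higher without overlap by 1.5. For B2M, the shared light chain, the probe-set of the largest SD gave −1.14 and the other probe-sets −0.23 and −0.26. Of the 16 genes 13 had a negative difference and 5 an unadjusted p under 0.05, with a median of −1.03, or −0.60 with the probe-set of the highest mean and −0.66 with the doxorubicin AUC0 as a covariate.

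**Figure D3:**
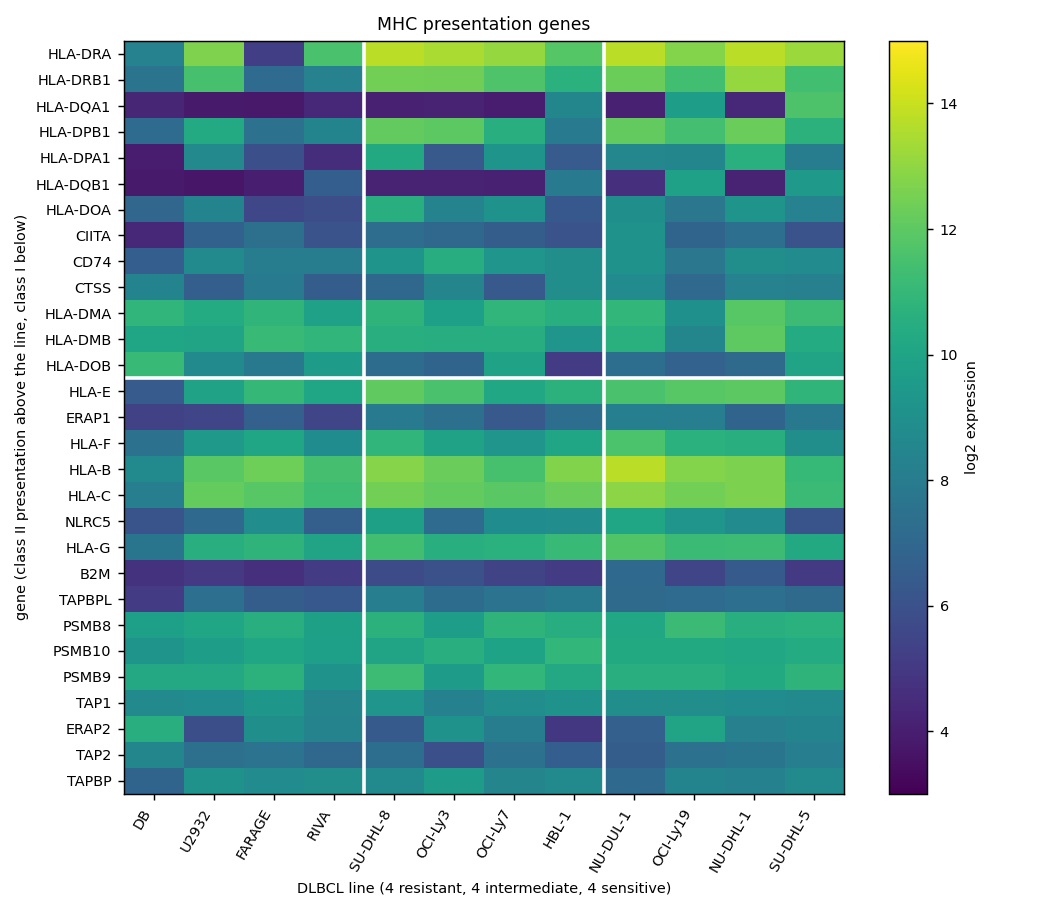
Log2 expression (colour) of 13 genes of MHC class II presentation, above the horizontal line, and 16 of class I presentation, below it, in the 4 resistant, 4 intermediate and 4 sensitive DLBCL lines. For each gene the most variable probe-set in the DLBCL panel is shown. HLA-DRA, HLA-DRB1, HLA-DPB1 and HLA-DPA1 are lowest in DB, FARAGE and RIVA among the resistant lines and high in all sensitive lines, and DB is the darkest column in HLA-E, HLA-B and HLA-C.

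Interferon-stimulated genes, many of which respond to the same cytokines as the MHC genes, had a median of −0.46 over 43 genes, with 31 below 0, and a median of −0.11 with the doxorubicin AUC0 as a covariate. At an unadjusted p of 0.05, 5 were lower and 2 higher. RIGI, a sensor of viral RNA, was at 5.49 to 5.97 in the resistant and 6.16 to 7.50 in the sensitive lines, and IFIT3 at 3.35 to 6.14 and 4.94 to 8.49. Only this 1 of the 3 probe-sets of RIGI did not overlap. MX2, an antiviral GTPase, ran the other way without overlap. It was at 10.38, 8.40, 10.24 and 9.76 in DB, FARAGE, RIVA and U2932, against 5.82, 7.57, 7.85 and 6.03 in NU-DHL-1, NU-DUL-1, OCI-Ly19 and SU-DHL-5, a difference of 2.88 (standard error 0.61, adjusted p = 0.83, limma). IRF9, part of the complex that binds interferon-response elements, had a difference of 1.28. CALHM6, a subunit of calcium homeostasis modulator channels, had the smallest p of all named genes. It was at 3.37, 3.44, 4.09 and 4.24 in DB, FARAGE, RIVA and U2932, against 7.93, 7.22, 8.74 and 7.56 in NU-DHL-1, NU-DUL-1, OCI-Ly19 and SU-DHL-5. The resistant lines were thus near the bottom of the scale and the log2 difference was −4.08 (standard error 0.36) with an adjusted p of 0.181 from limma. Of its 5 probe-sets 4 were lower without overlap.

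Of the 20 genes of the NF-κB list 4 were higher in the resistant lines at an unadjusted p under 0.05 with limma and none was lower. The 4 were REL, CD40, BCL2A1 and CCL4, and the classes overlapped in CCL4. NF-κB dimers of REL, RELA and NFKB1 products enter the nucleus after signals from receptors such as CD40 and switch on survival genes, among them BCL2A1. TNFSF8, the ligand of CD30, is not in the list and was named for its small p and large difference. It was at 9.48 in DB, 7.81 in FARAGE, 6.69 in RIVA and 8.14 in U2932, against 3.68 in NU-DHL-1, 3.82 in NU-DUL-1, 4.16 in OCI-Ly19 and 4.59 in SU-DHL-5. The sensitive lines lay near the bottom of the scale, and the log2 difference was 3.97 (standard error 0.54), with an adjusted p of 0.414 from limma. All 3 of its probe-sets were higher without overlap. CD40 was at 7.23, 7.03, 7.74 and 6.89 in DB, FARAGE, RIVA and U2932, against 5.61, 5.84, 4.97 and 6.09 in the sensitive lines, and all 4 of its probe-sets did not overlap. TRAF4, an adaptor of the TNF receptor family that is likewise not in the list and was named for its small p, was at 8.95 to 9.52 against 8.0 to 8.38.

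REL, which encodes the c-Rel subunit, was at 9.45, 9.89, 9.72 and 9.43 in DB, FARAGE, RIVA and U2932, against 5.82, 8.03, 7.65 and 8.24 in NU-DHL-1, NU-DUL-1, OCI-Ly19 and SU-DHL-5. The resistant lines lay within a narrow range and all 5 probe-sets were higher without overlap, with a difference of 2.19 (standard error 0.50, adjusted p = 0.899, limma). NFKB1, which encodes the p50 subunit, differed by 0.45 (standard error 0.28) and overlapped. The target genes ICAM1 and CD83 were higher in FARAGE, RIVA and U2932 but not in DB. ICAM1 was at 5.13 in DB and 9.20 to 9.59 in the other resistant lines, against 5.24 to 8.35 in the sensitive lines, and CD83 at 7.24 in DB and 11.01 to 12.41, against 8.40 to 9.97. TRAF1 was at 6.91 to 10.78 against 5.68 to 7.56. Over the 20 NF-κB genes 18 had a positive difference, where 51.6% of all genes did, 4 had an unadjusted p under 0.05 and 3 did not overlap, with a median of 0.95. The median was 0.46 with the supplier as a block and 0.97 with the doxorubicin AUC0 as a covariate. The mean log2 expression over the list was 7.18 in DB and 8.81 to 9.60 in the other resistant lines, against 6.96 to 8.50 in the sensitive lines. DB thus lay within the range of the sensitive lines.

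The promoters of REL and NFKB1 are shown because both genes are known targets of the factor they encode. The κB letters, GGGA followed by any 2 bases and TTCC, were searched on both strands in the same table, which holds 15 of the 20 genes. They were found in NFKB1, REL, NFKBIA and TNFAIP3, and in 1.63% of all promoters. The stretches from 110 to 31 bases before the start are those of REL at chr2:60881464-60881543 (plus strand) and NFKB1 at chr4:102501249-102501328 (plus strand), with matches on either strand in capitals, and in REL matches on the 2 strands overlap.
REL: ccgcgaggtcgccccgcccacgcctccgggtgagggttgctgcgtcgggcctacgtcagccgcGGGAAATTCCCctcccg
NFKB1: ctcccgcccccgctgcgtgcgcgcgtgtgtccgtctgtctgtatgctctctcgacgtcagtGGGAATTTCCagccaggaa

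BCL2A1, an anti-apoptotic member of the BCL2 family, had the largest positive difference of the genes whose classes did not overlap. It was at 8.50 in DB, 12.52 in FARAGE, 11.13 in RIVA and 12.23 in U2932, against 4.18 in NU-DHL-1, 7.07 in NU-DUL-1, 7.62 in OCI-Ly19 and 7.20 in SU-DHL-5. The lowest value in either class stood apart from the others, and the difference was 4.58 (standard error 1.07, adjusted p = 0.914, limma), or 3.35 with the supplier as a block. BCL2L1, which encodes BCL-XL, was at 7.30 to 8.51 in the resistant and 6.23 to 7.54 in the sensitive lines. BCL2 itself was at 9.29 to 12.47 in the resistant lines, against 8.54 to 10.91 in the sensitive lines other than SU-DHL-5, which was at 4.22. Its difference was 2.81 (standard error 1.44) and became 1.43 without SU-DHL-5. MCL1 had a difference of 0.96 (standard error 0.88), or 0.13 without U2932, which was at 11.65. The 5 anti-apoptotic genes had a median of 1.26 and the 10 pro-apoptotic genes a median of 0.09, which was 0.62 without FARAGE.

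B-cell genes differed in single members, and their lists went both ways. Of 15 mature B-cell markers 8 had a positive and 7 a negative difference, with a median of 0.16. Of 17 genes of B-cell receptor signalling 6 were positive and 11 negative, with a median of −0.15. MS4A1, which encodes CD20, the target of rituximab, was at 11.20, 11.47, 10.97 and 11.83 in DB, FARAGE, RIVA and U2932, against 10.59, 8.64, 8.48 and 10.24 in NU-DHL-1, NU-DUL-1, OCI-Ly19 and SU-DHL-5. All 4 of its probe-sets were higher without overlap, with a difference of 1.88 (standard error 0.51, adjusted p = 0.997, limma). CXCR5, the receptor that guides B cells to follicles, was at 7.08 in DB and 10.11 to 11.45 in the other resistant lines, against 5.16 to 6.22. DAPP1, an adaptor downstream of PI3-kinase, did not overlap either, at 9.0 to 9.61 against 7.28 to 8.68. BCL6, a repressor needed for the germinal centre reaction, was at 11.09 to 12.89 in the resistant lines, against 6.84 to 9.82 in the sensitive lines other than SU-DHL-5, which was at 12.51. RGS13 and MYBL1 were likewise high in SU-DHL-5, at 11.03 and 11.16, and lower in the other sensitive lines, at 2.92 to 4.08 and 3.91 to 7.53. Among the resistant lines RIVA was the lowest in all 3 genes, with RGS13 at 5.41 and MYBL1 at 7.96. Of 13 germinal centre markers 11 had a positive difference, with a median of 0.74, or 2.51 with the doxorubicin AUC0 as a covariate, and it ran from 0.31 without FARAGE to 1.67 without RIVA. Of 20 activated B-cell markers 14 were positive with a median of 0.72, or 0.0412 with the supplier as a block, 0.237 without U2932 and 0.254 without RIVA, and none had an unadjusted p under 0.05 with limma, and IRF4 was at 5.44 to 11.94 against 5.69 to 11.79. HHEX, a homeobox factor of B-cell development, was lower without overlap, at 4.90, 4.74, 7.78 and 7.02 in DB, FARAGE, RIVA and U2932, against 8.58 to 10.92.

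The DNA repair lists other than mismatch repair had medians of 0.01 to 0.19. Over 23 Fanconi and homologous recombination genes the median was 0.01, and 2 did not overlap. FAN1, a nuclease for crosslink repair, was at 7.46 to 8.25 in the resistant and 5.31 to 7.28 in the sensitive lines, and FANCG, a subunit of the Fanconi core complex, at 8.44 to 9.01 and 9.16 to 9.59. The other probe-sets of FAN1, which has 3, overlapped. WEE1, the kinase that holds cells before mitosis after damage, was at 9.86, 10.20, 10.08 and 10.30 in DB, FARAGE, RIVA and U2932, against 8.67, 8.40, 8.97 and 9.45 in the sensitive lines, and it was the only 1 of 18 checkpoint genes that did not overlap. RB1, the retinoblastoma tumour suppressor, was named after its values were seen. It was at 8.50, 8.85, 6.22 and 7.76 in DB, FARAGE, RIVA and U2932, against 11.29, 10.20, 10.60 and 10.28 in NU-DHL-1, NU-DUL-1, OCI-Ly19 and SU-DHL-5, and the intermediate lines were at 10.14 to 11.31. Its difference was −2.76 (standard error 0.56, adjusted p = 0.809, limma), or −1.77 with the doxorubicin AUC0 as a covariate, and a second probe-set overlapped at −1.14.

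SLFN11, which blocks replication in cells with damaged DNA, was at 4.11 in DB, 4.33 in FARAGE, 6.92 in RIVA and 8.14 in U2932, against 7.49 in NU-DHL-1, 7.27 in NU-DUL-1, 9.85 in OCI-Ly19 and 9.48 in SU-DHL-5. DB, FARAGE and RIVA were below every sensitive line and U2932 was not. The difference was −2.65 (standard error 1.05, adjusted p = 0.997, limma), and the other 3 Schlafen genes measured lay between −0.38 and −0.02. MGMT, which removes alkyl groups from guanine, was at 6.52 to 10.33 against 8.13 to 8.90 and gave no separation. The 5 mismatch repair genes were all below 0 with a median of −0.56, and none had an unadjusted p under 0.05 with limma. MSH6, a subunit of the mismatch sensor, was at 3.84 in FARAGE and 10.86 to 11.39 in the other resistant lines, against 10.79 to 11.92, and a second probe-set was at 3.90 in FARAGE. In the other 2 of its 4 probe-sets FARAGE was not apart, and 1 of them was at 3.22 to 3.42 in all 8 lines. Proliferation genes had a median of −0.05 over 26 genes, none with an unadjusted p under 0.05 in limma, and p53 targets a median of 0.01 over 19.

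ERK feedback genes, which report signalling through the MAP kinase cascade, were lower in part. DUSP6, the phosphatase of ERK, was at 3.22, 3.42, 5.62 and 3.23 in DB, FARAGE, RIVA and U2932, against 9.48, 5.47, 9.40 and 7.09 in NU-DHL-1, NU-DUL-1, OCI-Ly19 and SU-DHL-5. DB, FARAGE and U2932 were near the bottom of the scale, while RIVA overlapped NU-DUL-1. The difference was −3.99 (standard error 1.0, adjusted p = 0.997, limma). SPRY4, an inhibitor of the cascade, did not overlap, at 5.37 to 5.57 against 5.85 to 8.03, and SPRED1 and ETV5 had differences of −2.30 and −2.14 with overlap, or −0.58 and −1.15 with the doxorubicin AUC0 as a covariate. NU-DUL-1 was the lowest sensitive line in DUSP6, SPRY4, SPRED1 and ETV5. Of the 15 genes 9 were below 0, with a median of −0.38, or −0.17 with that covariate and −0.09 with the probe-set of the highest mean.

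**Figure D4:**
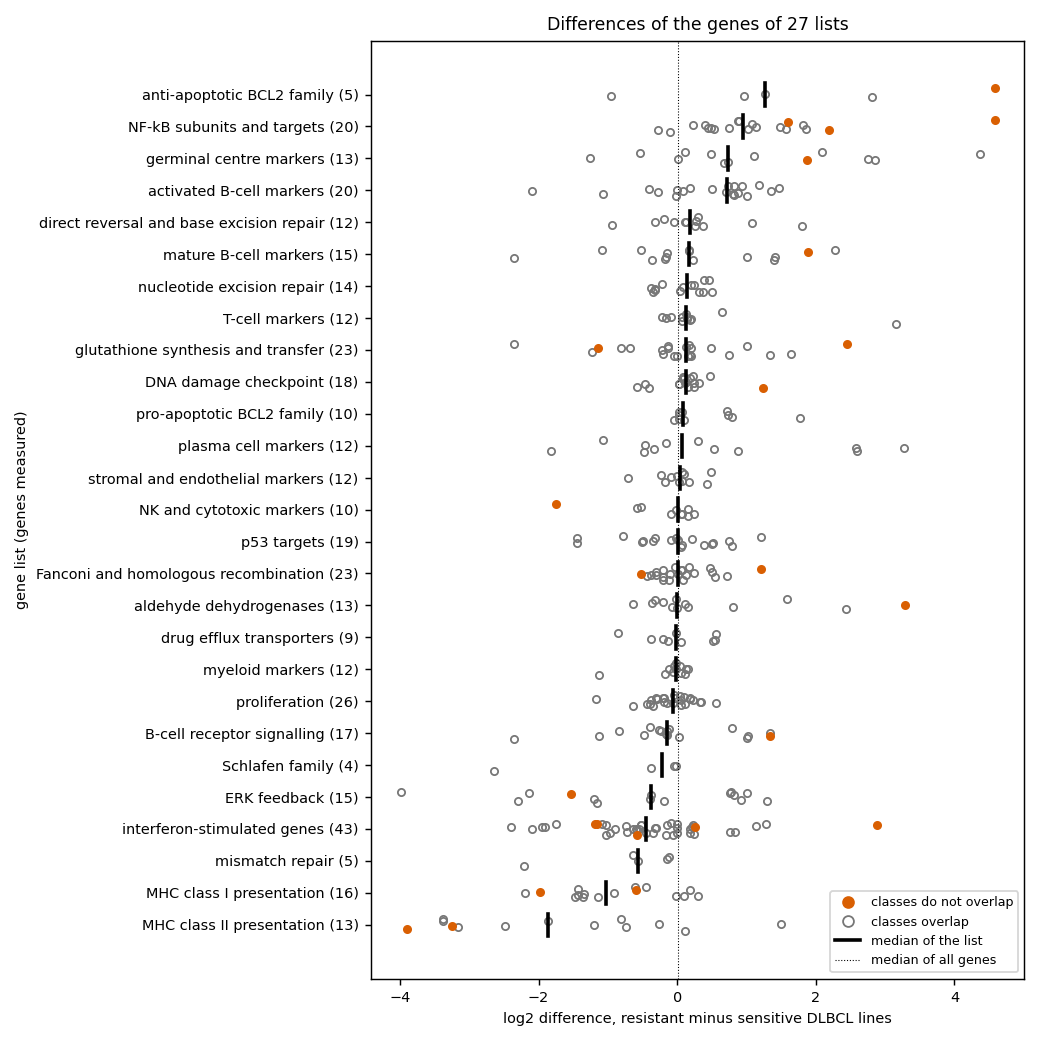
Log2 differences, resistant minus sensitive DLBCL lines, of the genes of 27 lists, 1 point per gene for its most variable probe-set in the DLBCL panel. Filled points are genes whose classes do not overlap, thick bars list medians and the dotted line the median of all genes (0.01). The MHC class II list lies lowest with a median of −1.86 and the anti-apoptotic BCL2 and NF-κB lists, which share BCL2A1, highest with 1.26 and 0.95.

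Other genes of small p or large differences without overlap belonged to no list. KIF26B, a kinesin-like protein, was at 6.78, 7.10, 8.01 and 7.19 in DB, FARAGE, RIVA and U2932, against 4.71, 4.73, 4.95 and 4.79 in NU-DHL-1, NU-DUL-1, OCI-Ly19 and SU-DHL-5. Its sensitive lines had an SD of 0.11, and the difference was 2.48 (standard error 0.25, adjusted p = 0.181, limma). Of its 3 probe-sets only this one did not overlap. CHDH, the choline dehydrogenase of mitochondria, was at 5.83 to 6.68 against 3.99 to 4.65, with 5 of 7 probe-sets higher without overlap, and ZFAT, a zinc finger protein, at 8.38 to 9.08 against 6.65 to 7.16. ZBTB20, a transcriptional repressor, differed by 1.57 and did not overlap in 9 of 12 probe-sets. SGCB, SLC1A4 and SGSH, which encode β-sarcoglycan, a neutral amino acid transporter and a lysosomal sulfatase, were higher by 1.21, 1.05 and 0.87. MDFIC, a regulator of transcription factors, and TUBB2A, a β-tubulin isotype, were at 9.82 to 11.41 against 4.07 to 8.76, and at 10.71 to 12.08 against 5.60 to 8.78.

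Among the lower genes, NLGN4X, a neuroligin of synapses, was at 3.12 to 3.63 in the resistant lines, the bottom of the scale, against 8.70, 4.73, 7.84 and 10.08 in NU-DHL-1, NU-DUL-1, OCI-Ly19 and SU-DHL-5. The sensitive lines thus ranged widely, and the difference was −4.42 (standard error 1.01, adjusted p = 0.899, limma). PTGR3, a prostaglandin reductase, was at 5.87 to 6.83 against 7.42 to 9.05, with 6 of 7 probe-sets lower without overlap. OTUD1, a deubiquitinase, differed by −1.54, SLC4A7, a bicarbonate transporter, by −1.06, PLEKHB2 by −0.81, RCC1, the exchange factor of Ran, by −0.68 and RETREG2 by −0.62. OTUD1 and PLEKHB2 each had 2 of 3 probe-sets lower without overlap, and the remaining one was at 0.12 and 0.0032. Of the 4 probe-sets of SLC4A7 2 did not overlap, and of the 4 of RETREG2 only 1. RPS24, a ribosomal protein, and NACA, a chaperone of nascent chains, differed by −1.44 and −1.35 at the probe-sets of the smallest p. The other probe-set of RPS24 gave −0.27 and the others of NACA −0.23 and −0.22.

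The intermediate lines are given for the 28 genes named for the smallest p or the largest difference without overlap. OCI-Ly3 and OCI-Ly7 were on the resistant side of the midpoint between the class means for 17 of the 28 genes each, HBL-1 for 14 and SU-DHL-8 for 5. SU-DHL-8, at 271 the intermediate line with the highest cyclophosphamide AUC0, was thus the one most often on the sensitive side. For ALDH2 the intermediate lines were at 6.19 in HBL-1, 10.14 in OCI-Ly3, 8.38 in OCI-Ly7 and 6.26 in SU-DHL-8, and for TNFSF8 at 3.64, 3.49, 8.69 and 3.26 in the same order. CALHM6 was at 10.94 in SU-DHL-8 and 3.86 to 4.68 in the other intermediate lines. For HLA-DRA, OCI-Ly3, OCI-Ly7 and SU-DHL-8 were at 13.12 to 13.78, close to the sensitive lines. HBL-1 was at 11.84, below every sensitive line and between the resistant lines RIVA and U2932. When expression was fitted to the cyclophosphamide AUC0 itself over all 12 lines, 0 of 54613 probe-sets (0.0%) passed an adjusted p of 0.05 with limma, against 2703 (4.95%) at an unadjusted p of 0.05, of which 1307 (2.39%) had a positive and 1396 (2.56%) a negative slope. The slope per 100 units of AUC0 was 2.44 for ALDH2 and −2.53 for HLA-DRA on the log2 scale.

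Resistant and sensitive lines were also compared within the MM panel. Its classes were set within that panel, so a class does not stand for the same AUC0 in both diseases. OPM-2, sensitive among the MM lines, had a higher cyclophosphamide AUC0 than RIVA, resistant among the DLBCL lines. In the MM lines 0 of 54613 probe-sets (0.0%) passed with limma and 2253 (4.13%) had an unadjusted p under 0.05. Of these 1110 were higher (2.03%) and 1143 lower (2.09%). Of the 28 genes 8 had the same sign in the MM lines and none of the 28 had an unadjusted p under 0.05 there with limma. The difference of the DLBCL lines itself differed from that of the MM lines in 14 probe-sets (0.0256%) at an adjusted p of 0.05 for the interaction with limma, 12 positive (0.022%) and 2 negative (0.00366%). At an unadjusted p of 0.05 limma gave 2477 (4.54%), 1332 positive (2.44%) and 1145 negative (2.1%). The count of 14 became 5 without FARAGE, 6 without NU-DUL-1, 7 without OCI-Ly19, 9 without NU-DHL-1 and 9 without U2932. CREM, a regulator of transcription downstream of cyclic AMP, passed with 2 of its 6 probe-sets. It was at 9.16, 10.27, 9.42 and 10.94 in DB, FARAGE, RIVA and U2932, against 7.09, 7.17, 7.72 and 8.05 in NU-DHL-1, NU-DUL-1, OCI-Ly19 and SU-DHL-5. In the MM lines it was at 6.51 to 6.89 in the resistant and 7.53 to 8.18 in the sensitive class, so that the classes were apart in both diseases with opposite signs, and the adjusted p of the interaction was 0.017 (limma). TNFSF8 and KIF26B passed as well, and in the MM lines both classes were low, at 3.38 to 3.84 and 3.39 to 3.99 for TNFSF8 and at 4.41 to 5.16 and 4.62 to 5.00 for KIF26B. S100A4, a calcium-binding protein tied to cell motility, had a difference of −2.07 in the DLBCL lines, with overlap, and 6.89 in the MM lines. The DLBCL value was −1.22 without NU-DHL-1 and −1.38 with the supplier as a block.

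PSME1, a subunit of the proteasome activator PA28, passed with −0.57 in the DLBCL lines and 0.77 in the MM lines. The other probe-sets that passed were of APBA2, RAI14, TMTC1 and GUCY1A1, which differed by −0.08 to 0.20 in the DLBCL lines and by −4.57 to −1.65 in the MM lines, and 1 without a gene symbol. That one was at 8.30, 8.57, 8.88 and 10.02 in DB, FARAGE, RIVA and U2932, against 4.17, 4.49, 5.37 and 4.25 in NU-DHL-1, NU-DUL-1, OCI-Ly19 and SU-DHL-5. The genes that passed only this test were named after their values were seen. For the MHC class II list the median difference was −1.86 in the DLBCL lines and 1.42 in the MM lines, and for the interferon-stimulated genes −0.46 and 1.30. The list medians were not tested against each other.

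**Figure D5:**
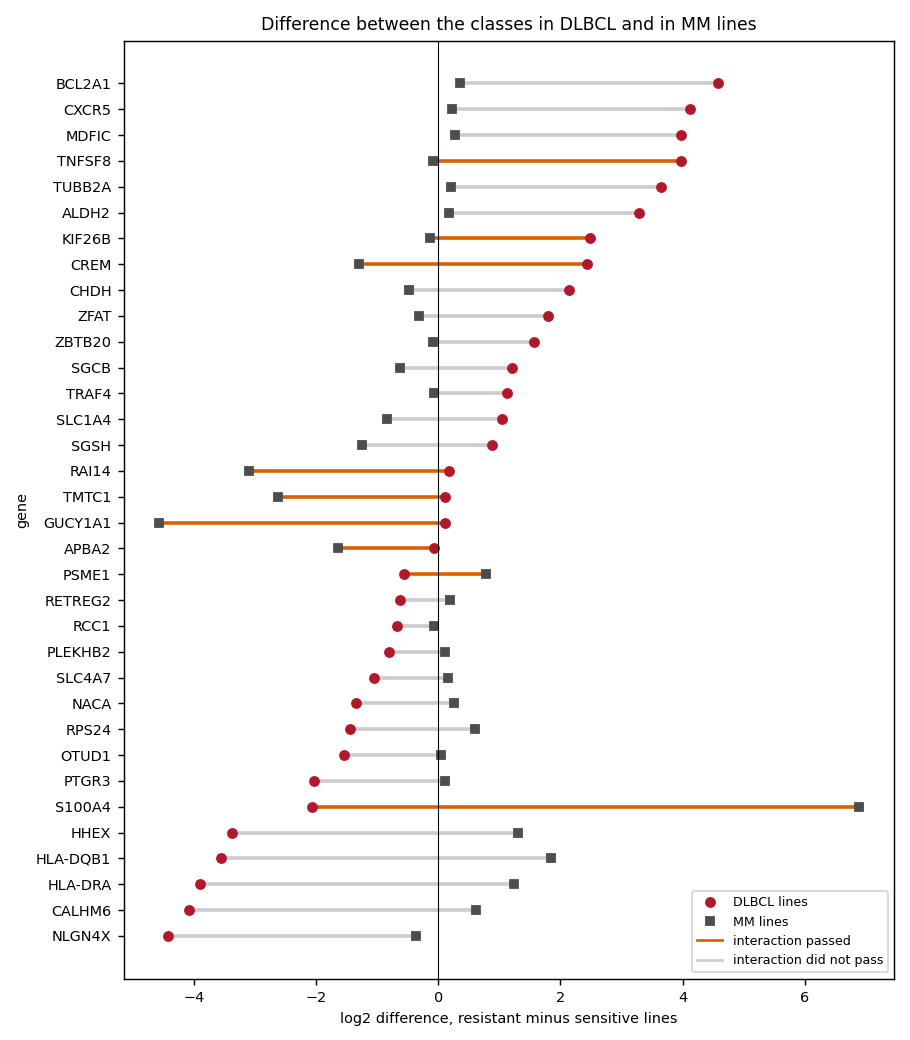
Log2 differences, resistant minus sensitive, in the DLBCL lines (circles) and in the MM lines (squares) for genes of the smallest p or the largest difference without overlap and for genes that passed the interaction. Orange bars mark genes whose interaction passed an adjusted p of 0.05 with limma. S100A4 has −2.07 in the DLBCL lines and 6.89 in the MM lines, and BCL2A1 4.58 and 0.35.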

How the data were processed

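The deposited table holds log2 expression values that the authors made with RMA (affy in R 3.0.1, per the labels' processing notes) from HG-U133 Plus 2.0 arrays of untreated cell lines, with 1 array per line. RMA brings arrays to a common distribution and so can shrink differences shared by most genes. Precision is limited by the 4 arrays per class. Classes and AUC0 values were taken from the sample labels. The 62 control probe-sets were left out, and of the 54613 others 41091 had 1 gene symbol, 1801 several and 11721 none in the platform annotation, updated with RefSeq.

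Resistant and sensitive DLBCL lines were compared with limma 3.58.1 in R 4.3.3 (lmFit and eBayes, 8 lines), with Benjamini-Hochberg adjustment over all probe-sets and a threshold of 0.05. The slope on AUC0 (12 lines) and the interaction with disease (16 lines) were fitted likewise. Python 3.11.15 was used for counts and figures. In the 27 gene lists the probe-set that varied most (by SD) among the 14 DLBCL panel lines stands for a gene, and 25 of 424 members had no probe-set used here. Genes named are the 10 higher and 10 lower of smallest p, the 5 higher and 5 lower of largest difference without overlap, list members with an unadjusted p under 0.05 or without overlap, and genes known for the drug. Others, namely RB1, CD86, PSD3, ZNF542P, MAML3, genes of the interaction and list members given to complete a list, were picked once their values were known. A gene that the rule names is not reported here. The members and lists were chosen with earlier results of these data known. The fitting code was tested on simulated data. The alternatives were other sets of lines and probe-sets, dim probe-sets left out, another prior, arrays centred on their medians, the supplier as a block, the doxorubicin AUC0 as a covariate and each line left out. Genes have no coordinates here because the build behind the probe-sets is not given in the sources used here.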

Additional observations from a re-analysis of the deposited data

Results flagged for a closer look

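Among 218 groups of 4 lines examined, 23 held a line far from the other 3, where chance gives about 1 in 20. As several of these genes were named because of such a line, the number is not a rate. FARAGE stood apart most often. Among the resistant lines it was at 3.84 for MSH6 (others 10.86 to 11.39), at 3.95 for FOXP1, a B-cell transcription factor (others 10.57 to 11.36), at 3.73 for ZNF542P, at 7.97 for MAML3, a Notch coactivator (others 3.0 to 3.44), at 8.25 for FAN1, at 6.68 for ERAP1 and at 4.59 for GBP5, whose other values were 3.94 to 4.01. RIVA was at 9.20 for PLEKHB2, 9.0 for DAPP1, 5.62 for DUSP6 and 4.17 for GZMA. DB was at 5.13 for ICAM1 and at 4.22 for GPX1, the cytosolic glutathione peroxidase, which was at 10.25 to 11.25 in the other resistant lines. U2932 was at 12.32 for MGST1, a microsomal glutathione transferase (others 4.42 to 4.82).

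Among the sensitive lines, SU-DHL-5 was at 11.03 for RGS13, at 9.29 for CD86, a costimulatory ligand (others 5.07 to 5.57), and at 3.31 for PSD3 (others 7.86 to 8.45). OCI-Ly19 was at 10.90 for the granzyme GZMA (others 4.39 to 4.46), at 5.92 for DDX60 and at 4.30 for ZNF542P. NU-DHL-1 was at 4.18 for BCL2A1 and 10.79 for MSH6, and NU-DUL-1 at 6.63 for STAP1.

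The difference between the classes was itself different between the DLBCL and the MM lines in 14 probe-sets with limma. As the DLBCL minus the MM difference, this was −1.34 for PSME1 (adjusted p = 0.0478), −8.96 for S100A4 (0.0209), 3.27 for RAI14 (0.0251), 1.57 for APBA2 (0.0128), 4.05 for TNFSF8 (0.0456) and 2.62 for KIF26B (0.0128). It was 3.74 and 3.47 for 2 probe-sets of CREM (0.017 and 0.0456), 2.74, 3.75 and 4.46 for 3 of TMTC1 (0.0128, 0.0128 and 0.0422), 4.68 and 2.72 for 2 of GUCY1A1 (0.0456 and 0.0394), and 4.07 for the probe-set without a symbol (0.0128).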

How the results depend on the processing

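With 4 lines a class, a gene that varies within a class can differ by several log2 units and still miss the adjusted threshold, and signals near the bottom of the scale have no order. No paired analysis was possible because the classes hold different lines with 1 array each, with no pairs between them. Of the values of single genes under the alternatives 1870 kept their sign and their side of the threshold. With limma 0 probe-sets passed in the main comparison, but 5 passed when all 24 lines with a class shared 1 spread, among them ZBTB20 (adjusted p = 0.0137), KIF26B (0.0299), NLGN4X (0.0355) and CREM (0.0466), and 0 to 3 when a line was left out. These were ZNF542P (0.0181) and MAML3 (0.00532) without FARAGE, KIF26B (0.0379) and 1 further probe-set, outside the rule for named genes, without RIVA, and CD86 (0.00203) and 2 probe-sets of PSD3 without SU-DHL-5. Probe-sets at an unadjusted p of 0.05 numbered 1304 and 1382 with 1 probe-set per gene by the largest SD and the highest mean. Those higher without overlap numbered 445 without dim probe-sets, 414 with 1 per gene and 1201 to 1927 without a line, and those lower 405 with 1 per gene and 1217 to 1709 without a line. The counts without dim probe-sets and with 1 per gene are out of fewer than 54613 probe-sets. Without a line fewer values have to lie apart, which by itself raises the count. These numbers thus cannot be set directly against the 728 and 692 of the main comparison. The interaction gave 6 with 1 probe-set per gene and 5 to 14 without a line. In these counts with 1 probe-set per gene, every probe-set with no gene symbol or several was kept as well. They are thus not the counts behind the background shares given above, which cover only genes with a symbol.

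Of the list medians 292 moved by less than the spread between lines. The others were −0.0168 for nucleotide excision repair without U2932 (range −0.0168 to 0.151 over the lines left out), 0.62 for pro-apoptotic genes without FARAGE (range 0.12 to 0.62), 2.51 for germinal centre markers and −2.45 for MHC class II with the doxorubicin AUC0 as a covariate, and −1.20 for MHC class II with the probe-set of the highest mean. The medians with the doxorubicin covariate lean on FARAGE, as said above. Signs turned for ALDH1A1 (−0.168 to 0.0209 over the lines left out), ALDH3A1 (−0.14 to 0.14), MGMT (−0.24 to 1.03), IRF4 (−0.19 to 2.32, and −0.76 with the supplier as a block), HLA-DMA (−0.85 to 0.11, and 0.44 with the supplier), HLA-DMB (−0.52 to 0.66, −0.0183 with the doxorubicin covariate and −0.0306 as a slope), FOXP1 (−1.81 to 0.66), MGST1 (−0.28 to 2.35) and APBA2 (0.0904 with the doxorubicin covariate). The cause was not tested.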

Other observations

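The lines of a class differed from each other in genes of the thiol and mismatch repair lists. MGST1 was at 12.32 in U2932 and at 11.98, 11.90 and 10.44 in the intermediate lines HBL-1, OCI-Ly3 and OCI-Ly7, and at 4.19 to 5.29 in the 3 other resistant lines, SU-DHL-8 and all sensitive lines. PSD3, at 3.09 to 3.48 in the resistant lines, was at 7.86 in SU-DHL-8 and 3.26 to 3.36 in the other intermediate lines, and CD86, at 9.14 to 9.48 in the resistant lines, was at 4.56 in SU-DHL-8 and 8.65 to 9.55 in the other intermediate lines.

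LCK, from the T-cell list, and SLAMF7, from the plasma cell list, differed widely between single lines. LCK, a kinase of lymphocyte receptors, was at 9.81 in DB, 10.39 in RIVA, 9.82 in U2932 and higher still in FARAGE, against 5.13, 5.13, 8.32 and 10.79 in NU-DHL-1, NU-DUL-1, OCI-Ly19 and SU-DHL-5. SLAMF7, a surface receptor of plasma and NK cells, was at 10.97 in FARAGE, 9.15 in U2932, 7.31 in RIVA and 4.63 in DB, against 4.10 to 5.48 in the sensitive lines, with a difference of 3.28 (standard error 1.22, adjusted p = 0.997, limma), or 1.90 with the supplier as a block and 5.04 with the doxorubicin AUC0 as a covariate. In the MM lines its difference was −4.28, and the interaction had an adjusted p of 0.739 with limma.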
